A study of Mus musculus with 6 samples.

Results

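The genes described here are 9 mouse genes of purinergic signalling, the cell-to-cell signalling by ATP, ADP, UTP, UDP and related nucleotides outside the cell. They are 7 receptors (P2rx4, P2rx7, P2ry2, P2ry6, P2ry12, P2ry13 and P2ry14) and 2 enzymes of the cell surface (Entpd1 and Nt5e), taken by gene name from the deposited annotation. All 9 were found among the 25032 genes with a read in some library. Poly(A) RNA was sequenced from the BV2 line, mouse microglia that were immortalised and grow in culture. In 3 libraries the cells overexpressed TDP43-NLS, a form of the RNA-binding protein TDP-43 that the series' design text calls an NLS mutant (NLS, nuclear localisation signal), and in 3 libraries they overexpressed GFP. The labels give no other treatment or time, and the sources used here give neither the promoter, the dose nor the species of the constructs. They also do not say whether the 3 libraries of a group came from separate cultures. The p-values then measure only how far these samples spread, and that spread may be technical.

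P2X receptors are cation channels that open when ATP binds. P2Y receptors are G-protein-coupled: P2ry2 (ATP and UTP) and P2ry6 (UDP) act mainly through Gq and calcium release, whereas P2ry12 and P2ry13 (both ADP) and P2ry14 (UDP-sugars) act mainly through Gi. Entpd1 (CD39) hydrolyses ATP and ADP to AMP, and Nt5e (CD73) hydrolyses AMP to adenosine. In microglia P2ry12 steers processes towards ATP and is a marker of the resting state, P2ry6 promotes phagocytosis, and P2rx7 opens at high ATP and activates the NLRP3 inflammasome.

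The library totals ran from 15062131 to 18005592 reads. Of 13199 genes that passed the filter on low counts, 7588 (57.5%) were called in edgeR's quasi-likelihood test, 29.3% higher and 28.2% lower in TDP43-NLS cells. A gene is called, and said to have risen or fallen, when its Benjamini-Hochberg adjusted p over all tested genes was under 0.05. Reads of Tardbp, the mouse gene of TDP-43, were fewer under the TDP43-NLS label (376 ± 9.61 CPM, against 451 ± 23.9 CPM in GFP libraries, SD, n = 3 each), and neither construct has a row of its own in the table. The directions below therefore rest on the labels. Of 15 microglia and macrophage markers, 14 had a read and 12 were tested, with Csf1r, Cd68, Spi1 and Ptprc all above 200 CPM in both groups. Of the 12, 4 rose (Aif1, Itgam, Cx3cr1 and Tmem119), 6 fell, among them Csf1r, Cd68, Spi1, Tyrobp and Gpr34, and Ptprc and Fcer1g were not called. Their summed level was 1435 to 1490 FPKM in TDP43-NLS libraries and 1642 to 1687 FPKM in GFP libraries. Tmem119 stood at 3.79 CPM in TDP43-NLS cells and 2.19 CPM in GFP cells, Siglech had 0 reads in TDP43-NLS cells and 5 in GFP cells, and Sall1 was not found by name. Marker lists of neurons, astrocytes, oligodendrocytes, fibroblasts and endothelium each summed to 0.762 FPKM at most in any library, with neuron markers at 0.518 to 0.611 FPKM in TDP43-NLS libraries and 0.0855 to 0.281 FPKM in GFP libraries, and endothelial markers at 0.611 to 0.693 FPKM in TDP43-NLS libraries and 0.110 to 0.192 FPKM in GFP libraries. Of the T and B cell markers, Cd2 was the only one with reads, 6 in TDP43-NLS cells and 191 in GFP cells, and the part of these markers in the results below was not tested.

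Among the libraries of a group, GFP replicate 2 stood apart. The chi-square of its counts, divided by the degrees of freedom, was 7.31 and 7.35 against GFP replicates 1 and 3, which lay closer to each other than any other pair. Among TDP43-NLS libraries it was 1.88 to 2.75. Without it, edgeR's log2 fold changes were 0.98 for P2ry2, 0.75 for P2ry6, -0.51 for P2rx7, -2.26 for P2ry12 and -0.80 for P2ry13, all still called, and 0.04 for P2rx4 and -0.06 for Entpd1, not called. Over all tested genes 4210 were then higher and 4041 lower.

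Of the 9 genes, P2ry2 and P2ry6 rose in TDP43-NLS cells, and P2rx7, P2ry12 and P2ry13 fell. P2rx4 and Entpd1 were not called, and P2ry14 and Nt5e had too few reads to be tested. The 5 calls among 7 tested genes stand beside 57.5% called over all tested genes, 2 higher beside 29.3% and 3 lower beside 28.2%. P2ry12 passed the filter only through the GFP libraries. A gene as low as P2ry12 was in the TDP43-NLS libraries is tested only where its GFP libraries are higher. For this reason the shares are not read as particular to the set. In the same 5 genes the libraries of the 2 groups did not overlap, as in 63.2% of all tested genes. P2ry2 and P2ry12 were called with a log2 fold change of at least 1 in size, as were 9.99% of all tested genes.

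**Figure D1:**
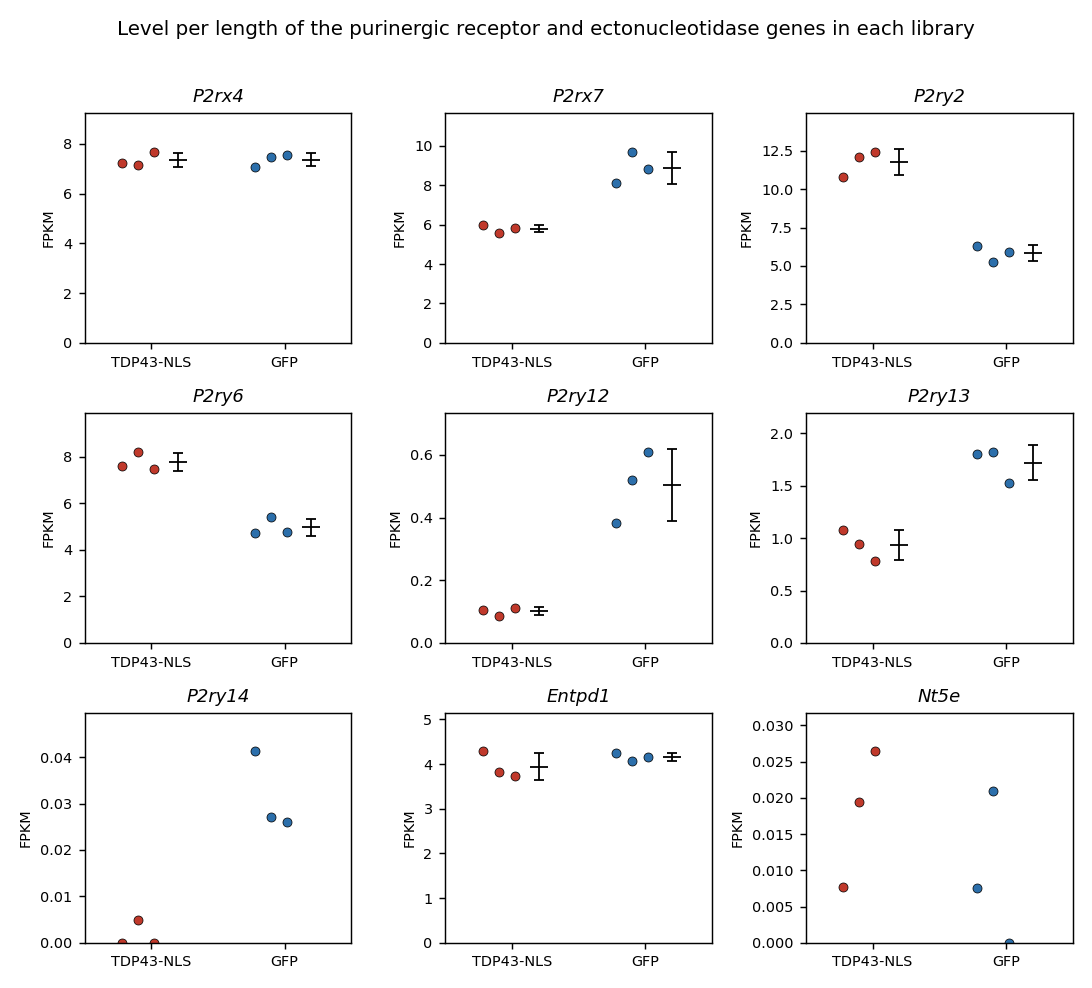
FPKM (reads scaled to gene length and library total) of each gene in each library, each panel with its own axis from 0; points are the 3 libraries of a group, and bars beside them give the mean and SD for the 7 tested genes. P2ry2 and P2ry6 lie higher in all TDP43-NLS libraries, P2rx7, P2ry12 and P2ry13 lie lower, P2rx4 and Entpd1 overlap, and P2ry14 and Nt5e stay under 0.05 FPKM in every library.

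The sequences before the start sites are shown for 5 of the genes: P2ry2, which rose, and the adjacent pairs P2rx7 and P2rx4, and P2ry13 and P2ry12. Each is the 250 bases before the first start that RefSeq lists on build GRCm38.p6, read 5′ to 3′ on the gene's strand. They lie at chr7:101012054-101012303 (minus strand), chr5:122643677-122643926 and chr5:122707294-122707543 (plus strand), and chr3:59210883-59211132 and chr3:59262986-59263235 (minus strand). Capitals mark matches, on either strand, to motifs of AP-1 (TGANTCA), PU.1 (core GAGGAA), NF-kB, the interferon-stimulated response element and the GC box (GGGCGG).
P2ry2: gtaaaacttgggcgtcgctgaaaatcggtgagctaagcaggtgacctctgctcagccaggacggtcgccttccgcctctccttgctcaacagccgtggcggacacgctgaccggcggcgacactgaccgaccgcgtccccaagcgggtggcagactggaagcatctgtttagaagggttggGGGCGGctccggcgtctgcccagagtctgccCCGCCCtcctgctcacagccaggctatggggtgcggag
P2rx7: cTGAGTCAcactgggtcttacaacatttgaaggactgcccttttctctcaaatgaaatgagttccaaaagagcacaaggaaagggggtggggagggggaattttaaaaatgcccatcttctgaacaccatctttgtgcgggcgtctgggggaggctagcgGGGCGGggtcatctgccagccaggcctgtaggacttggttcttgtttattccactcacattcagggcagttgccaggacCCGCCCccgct
P2rx4: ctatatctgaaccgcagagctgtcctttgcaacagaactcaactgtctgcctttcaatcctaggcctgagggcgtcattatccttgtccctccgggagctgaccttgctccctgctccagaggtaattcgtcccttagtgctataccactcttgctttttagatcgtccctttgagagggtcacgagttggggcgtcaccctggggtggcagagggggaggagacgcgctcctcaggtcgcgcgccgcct
P2ry13: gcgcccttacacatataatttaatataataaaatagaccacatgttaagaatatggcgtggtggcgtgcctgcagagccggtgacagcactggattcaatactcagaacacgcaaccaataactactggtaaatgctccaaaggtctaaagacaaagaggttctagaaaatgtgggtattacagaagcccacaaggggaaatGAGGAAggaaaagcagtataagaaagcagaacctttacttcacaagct
P2ry12: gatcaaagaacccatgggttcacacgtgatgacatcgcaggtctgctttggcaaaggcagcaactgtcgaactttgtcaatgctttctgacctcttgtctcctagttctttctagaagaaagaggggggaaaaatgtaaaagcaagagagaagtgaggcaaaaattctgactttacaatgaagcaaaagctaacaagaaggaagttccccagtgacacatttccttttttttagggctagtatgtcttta

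Over all 32851 start windows of that length, the share with a match was 6.75% for AP-1, 23.3% for PU.1, 0.98% for NF-kB, 2.98% for the interferon element and 32.7% for the GC box. P2ry2 held 2 GC boxes, the nearest ending 32 bases before the start, and P2rx7 held 2 GC boxes and 1 AP-1 match. P2ry13 held 1 PU.1 match, and the windows of P2rx4 and P2ry12 held none of the 5 motifs. GC content was 65.2% in P2ry2, 53.6% in P2rx7, 57.2% in P2rx4, and 41.6% in both P2ry13 and P2ry12, against a median of 52.4% over all windows. A match is a run of letters, not evidence of binding, and no match says only that these letters are not in this window. Windows were found for 8 of the 9 genes, all but P2ry6.

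P2ry2 (ENSMUSG00000032860, chromosome 7, 100645775 to 100662073 on GRCm39, minus strand), the receptor for ATP and UTP, had 637, 853 and 860 reads in TDP43-NLS libraries and 381, 345 and 405 in GFP libraries. Per length this was 10.8, 12.1 and 12.4 FPKM in TDP43-NLS libraries, against 6.32, 5.27 and 5.94 FPKM in GFP libraries. Each TDP43-NLS library was above every GFP library. The level rose to 46.8 ± 3.42 CPM, against 22.7 ± 2.09 CPM in GFP cells (SD, n = 3 each; CPM, reads scaled to the library total with TMM factors). The log2 fold change was 1.05 (standard error 0.08, adjusted p = 8.69e-08 in edgeR's quasi-likelihood test), and 9.45% of all tested genes had a larger absolute change.

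P2ry6 (ENSMUSG00000048779, chromosome 7, 100586837 to 100623856, minus strand), the UDP receptor, had 331, 427 and 379 reads in TDP43-NLS libraries and 210, 259 and 238 in GFP libraries. Its FPKM were 7.61, 8.21 and 7.45 in TDP43-NLS libraries, against 4.74, 5.38 and 4.75 in GFP libraries, again without overlap. The log2 fold change was 0.68 (standard error 0.08, adjusted p = 6.55e-06 in edgeR's quasi-likelihood test). Both calls also passed when tested against a log2 fold change of 0.5, which 14.9% of all tested genes did, with adjusted p of 1.1e-05 for P2ry2 and 0.0310 for P2ry6.

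The transcripts of P2ry2 in the GENCODE annotation also hold a run of TG repeats, shown because TDP-43 is known to bind UG-rich RNA. In 4 of its 6 annotated transcripts a run of 9 repeats lies in the untranslated part after the stop codon (chromosome 7; the run in capitals, with 6 bases on either side).
P2ry2: gatgggTGTGTGTGTGTGTGTGTGgtgggg
At least 6 TG repeats in a row occurred in some transcript of 12.6% of all tested genes and, among the 7 tested genes here, in P2ry2 only. P2ry14, which was not tested, has a run of 21. Among the others the longest run was 2 to 4 repeats. Introns were not searched, and binding of TDP-43 to any of these runs was not measured.

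Among the Gi-coupled receptors P2ry12 and P2ry13 fell, and P2ry14 was not tested. P2ry12 (ENSMUSG00000036353, chromosome 3, 59123693 to 59170292, minus strand) had 4, 4 and 5 reads in TDP43-NLS libraries and 15, 22 and 27 in GFP libraries. That is 0.261 ± 0.0325 CPM, against 1.27 ± 0.288 CPM in GFP cells (SD, n = 3 each). The highest TDP43-NLS library, with 5 reads, lay well below the lowest GFP library, with 15. The log2 fold change was -2.27 (standard error 0.34, adjusted p = 6.81e-05 in edgeR's quasi-likelihood test), which rests on 77 reads in all. The ratio of summed reads, GFP over TDP43-NLS, was 4.92 with a 95% exact binomial interval of 2.69 to 9.75, which covers counting error only.

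P2ry13 (ENSMUSG00000036362, chromosome 3, 59115313 to 59118303, minus strand), the other ADP receptor, was the most abundant Gi-coupled receptor of the set in both groups. It had 41, 43 and 35 reads in TDP43-NLS libraries and 70, 77 and 67 in GFP libraries, or 1.08, 0.945 and 0.786 FPKM against 1.80, 1.83 and 1.53 FPKM. The groups did not overlap. The log2 fold change was -0.84 (standard error 0.16, adjusted p = 0.000573 in edgeR's quasi-likelihood test).

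P2ry14 (ENSMUSG00000036381, chromosome 3, 59021276 to 59061039, minus strand), the receptor for UDP-glucose, had 0, 1 and 0 reads in TDP43-NLS libraries and 7, 5 and 5 in GFP libraries. It was under the filter in every library. The ratio of summed reads, GFP over TDP43-NLS, was 17.0 with a 95% exact binomial interval of 2.66 to 711. Without the filter edgeR called it lower (adjusted p = 0.00125), on 1 read in TDP43-NLS cells and 17 in GFP cells, and did not call Nt5e (adjusted p = 0.512). All 5 called genes had smaller adjusted p in that fit, such as 7.65e-51 for P2ry2 against 8.69e-08 with the filter. These p-values are therefore not comparable with the others given here.

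P2ry12, P2ry13 and P2ry14 lie in a row on the minus strand of chromosome 3, all 3 inside Med12l, a gene of the plus strand. Med12l itself fell, with 12, 19 and 19 reads in TDP43-NLS libraries and 19, 39 and 26 in GFP libraries (log2 fold change -0.74, standard error 0.28, adjusted p = 0.0341 in edgeR's quasi-likelihood test). The library kit is described with no strand-marking step and no source used here gives the strand setting of the counting, so reads of these genes and of Med12l may not be separable. P2ry13 alone had more reads than Med12l in each library, whereas P2ry14 had fewer in each. P2ry12 had fewer in all TDP43-NLS libraries and in GFP replicates 1 and 2, and 27 against 26 in GFP replicate 3. On the sides of this row, the nearest tested genes were Mbnl1, at a distance of 1209959 bases, which fell by 0.48 on the log2 scale, and the pseudogene Rpl13-ps6, which was not called (log2 fold change -0.38, adjusted p = 0.0742).

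Summed over the 3 Gi-coupled receptors, the level was 1.18, 1.04 and 0.898 FPKM in TDP43-NLS libraries and 2.23, 2.37 and 2.16 FPKM in GFP libraries. P2ry2 and P2ry6 summed to 18.4, 20.3 and 19.9 FPKM in TDP43-NLS libraries and 11.1, 10.7 and 10.7 FPKM in GFP libraries. P2ry1, a Gq-coupled receptor outside the set, is not in this sum. It fell (log2 fold change -0.81), from 2.86 FPKM in GFP cells to 1.59 FPKM in TDP43-NLS cells. Within a library, the ratio of the P2ry2 and P2ry6 sum to the sum of the 3 Gi-coupled receptors was 15.6, 19.6 and 22.2 in TDP43-NLS cells and 4.96, 4.49 and 4.94 in GFP cells. This ratio does not depend on the scaling between libraries. That the groups did not overlap in it follows from the values of the single genes given above and is no further support.

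The P2X genes lie side by side on chromosome 5, 16112 bases apart on the plus strand, and they parted. P2rx7 (ENSMUSG00000029468, 122781974 to 122829495) had 536, 601 and 614 reads in TDP43-NLS libraries and 743, 965 and 913 in GFP libraries. In CPM these were 36.1, 33.7 and 35.3 in TDP43-NLS libraries, against 47.8, 57.0 and 52.0 in GFP libraries. The GFP libraries spread more widely, with replicate 2 the highest, but all lay above the TDP43-NLS libraries. P2rx7 fell by 0.58 on the log2 scale (standard error 0.07, adjusted p = 7.38e-06 in edgeR's quasi-likelihood test). Tested against a log2 fold change of 0.5 it was not called (adjusted p = 0.229).

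P2rx4 (ENSMUSG00000029470, 122845607 to 122867801), the ATP-gated channel with a role in pain-related microglial signalling, had 767, 907 and 952 reads in TDP43-NLS libraries and 762, 875 and 922 in GFP libraries. The CPM were 51.7, 50.9 and 54.8 in TDP43-NLS libraries and 49.0, 51.7 and 52.5 in GFP libraries, and the groups overlapped. The log2 fold change was 0.04 with a 95% interval of -0.08 to 0.15 (adjusted p = 0.569 in edgeR's quasi-likelihood test). The ratio of P2rx7 to P2rx4 per length was 0.822, 0.780 and 0.759 in TDP43-NLS libraries and 1.15, 1.30 and 1.17 in GFP libraries.

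**Figure D2:**
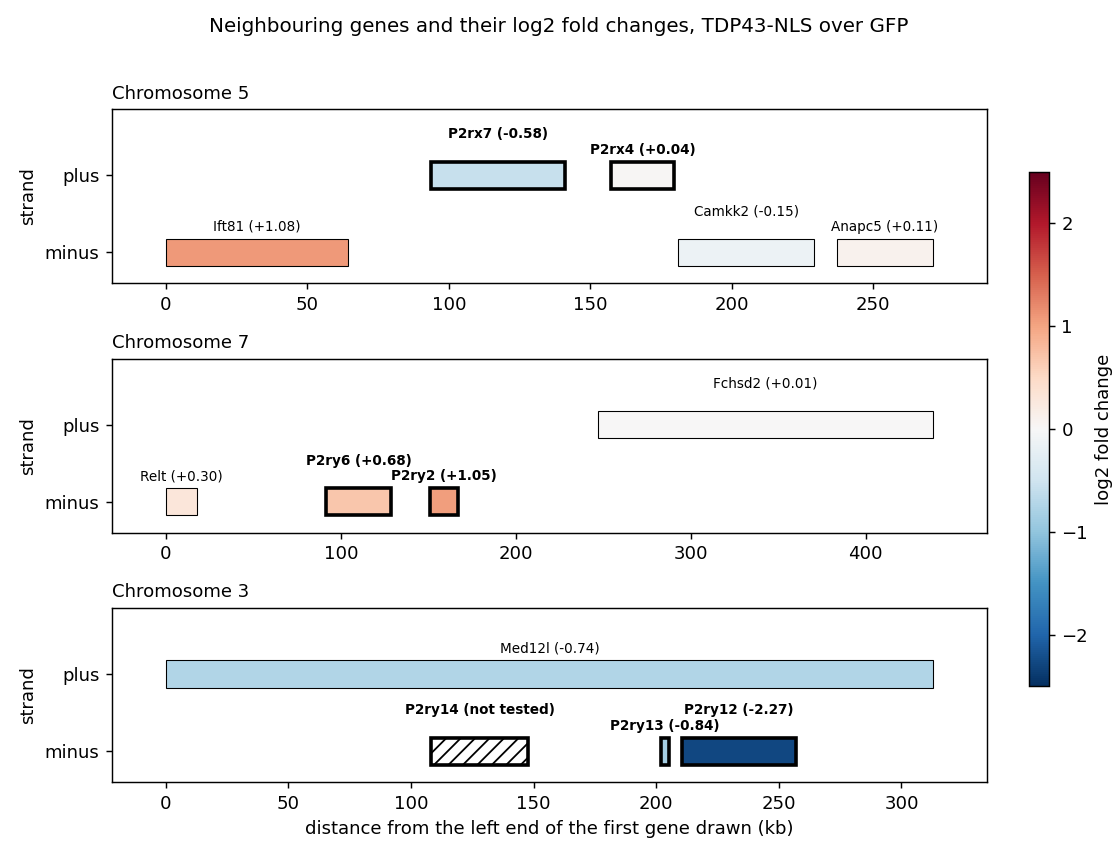
Position and strand of the receptor genes (thick outline) and their neighbours on chromosomes 5, 7 and 3, as distance in kb from the left end of the first gene drawn, coloured by log2 fold change (TDP43-NLS over GFP), which stands in brackets. P2ry6 and P2ry2 are both higher, P2rx7 is lower beside P2rx4 at 0.04, and P2ry13 and P2ry12 are lower inside Med12l, which is at -0.74.

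Other neighbours moved in no common direction. Camkk2, a kinase gene 1432 bases beyond P2rx4, fell by 0.15 on the log2 scale (adjusted p = 0.0242), and Ift81, a gene of ciliary transport on the other side of P2rx7, rose by 1.08 (adjusted p = 3.55e-05). P2ry6 and P2ry2 lie 21919 bases apart. Beyond P2ry6, Relt, a TNF receptor family member, rose by 0.30 (adjusted p = 0.00181), and beyond P2ry2, Fchsd2 had a log2 fold change of 0.01 (adjusted p = 0.900). These p-values are from edgeR's quasi-likelihood test. The median log2 fold change over tested genes was 0.04 on chromosome 5, 0.06 on chromosome 7, 0.01 on chromosome 3 and -0.03 on chromosome 19.

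**Figure D3:**
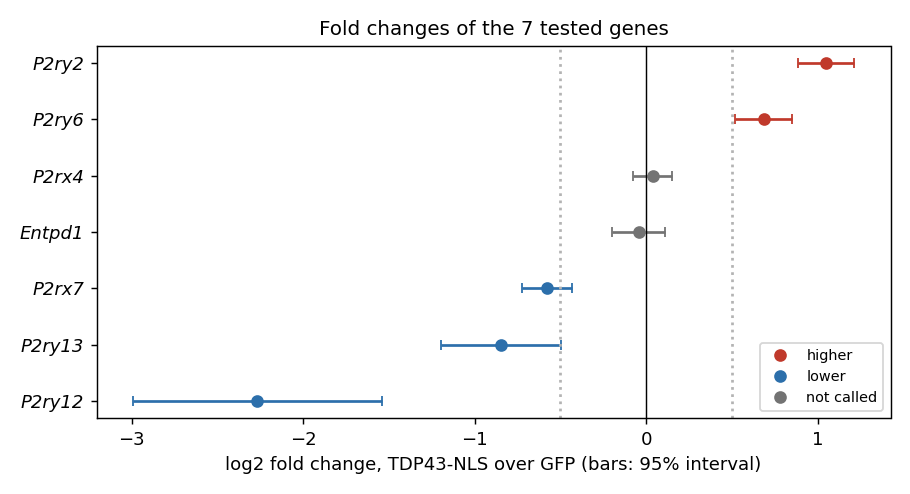
Log2 fold change (TDP43-NLS over GFP, edgeR) of the 7 tested genes with its 95% interval; dotted lines stand at -0.5 and 0.5. P2ry2 at 1.05 and P2ry6 at 0.68 are higher, P2rx7 at -0.58, P2ry13 at -0.84 and P2ry12 at -2.27 are lower, and the intervals of P2rx4 and Entpd1 include 0.

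Entpd1 (ENSMUSG00000048120, chromosome 19, 40600810 to 40730046, plus strand), which removes ATP and ADP, had 360, 384 and 367 reads in TDP43-NLS libraries and 365, 379 and 403 in GFP libraries. It stood at 22.3 ± 1.70 CPM in TDP43-NLS cells and 22.9 ± 0.538 CPM in GFP cells (SD, n = 3 each), with overlapping groups. The log2 fold change was -0.04 with a 95% interval of -0.20 to 0.11 (adjusted p = 0.621 in edgeR's quasi-likelihood test). The tested gene Gm8783, which overlaps it on the same strand, had 46 reads in TDP43-NLS cells and 71 in GFP cells and was not called (adjusted p = 0.0568). Its nearest tested neighbours, Tctn3 and Ccnj, fell by 0.25 and 0.47 on the log2 scale.

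Nt5e (ENSMUSG00000032420, chromosome 9, 88209250 to 88254145, plus strand), the enzyme that makes adenosine from AMP, had 1, 3 and 4 reads in TDP43-NLS libraries and 1, 3 and 0 in GFP libraries. It was not tested, and the ratio of summed reads, TDP43-NLS over GFP, was 2.00 with a 95% exact binomial interval of 0.536 to 9.07. The interval includes 1, and at this depth only a large difference could have been seen. Its nearest tested neighbours, Snx14 at 4655 bases and Cep162 at 1071661 bases, were not called (log2 fold changes 0.02 and -0.04). On the side of Snx14, Gm28229 at 69408 bases and Syncrip at 74917 bases fell, with log2 fold changes of -1.01 and -0.70. Gm10163, at 18745 bases, was not called (log2 fold change -0.14). The median over the 712 tested genes of chromosome 9 was -0.31.

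The order of the levels per length differed between the groups. In TDP43-NLS cells P2ry2 was first with 11.8 ± 0.874 FPKM, followed by P2ry6 (7.76 ± 0.401), P2rx4 (7.37 ± 0.283), P2rx7 (5.80 ± 0.189), Entpd1 (3.95 ± 0.295), P2ry13 (0.936 ± 0.146) and P2ry12 (0.101 ± 0.0125; SD, n = 3). In GFP cells P2rx7 was first with 8.87 ± 0.800 FPKM, followed by P2rx4 (7.36 ± 0.265), P2ry2 (5.84 ± 0.529), P2ry6 (4.95 ± 0.371), Entpd1 (4.16 ± 0.0915), P2ry13 (1.72 ± 0.167) and P2ry12 (0.504 ± 0.114; SD, n = 3). P2ry6 and P2rx4 overlapped in TDP43-NLS cells, and P2ry2 and P2ry6 overlapped in GFP cells. All other neighbours among these 7 were separated in every library. P2ry14 and Nt5e came last in both groups, each listed under 0.05 FPKM in every library.

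Profiles over the 6 libraries were compared as log2(CPM + 0.5), centred on each gene's mean, with 10757 other genes of at least 1 CPM and an established symbol. Those nearest to P2ry2 by Euclidean distance were H2-K1 (distance 0.13), Esd (0.15) and Prmt2 (0.15), with log2 fold changes of 1.09, 1.11 and 0.95. H2-K1, an MHC class I gene, has near-identical relatives, so its count is uncertain. Nearest to P2ry13 were Gsta3 (0.12), Btbd17 (0.15) and Slc45a3 (0.19), with log2 fold changes of -0.96, -0.80 and -0.86. P2ry13 was taken for the decreases because the mean of P2ry12 was under 1 CPM. Genes close in such a profile have like fold changes by the way they are picked, so that likeness is no further result.

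Among 11 other P2X and P2Y receptors and related genes, 7 were tested, 1 rose and 3 fell. P2rx1, Gpr34 and Gpr17, which make up 3 of these 4 calls, passed the filter only through the group where they are high, so the counts are not set against those of all genes. P2ry1, an ADP receptor coupled to Gq, was the best expressed of those that fell, with 6.89 ± 0.353 CPM in TDP43-NLS cells and 12.1 ± 0.389 CPM in GFP cells (SD, n = 3 each; log2 fold change -0.81, adjusted p = 6.62e-06 in edgeR's quasi-likelihood test). P2rx1, an ATP-gated channel, had 5 reads in TDP43-NLS cells and 48 in GFP cells (log2 fold change -3.17), and Gpr34, a microglial lysophospholipid receptor of the P2Y-like family, had 13 reads in TDP43-NLS cells and 56 in GFP cells (log2 fold change -2.08). Gpr17, a P2Y-like receptor, rose, with 62 reads in TDP43-NLS cells and 6 in GFP cells (log2 fold change 3.29). P2rx1, Gpr34 and Gpr17 were under 2 CPM in every library.

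Of 16 other nucleotide and NAD hydrolases, a list that holds intracellular enzymes beside those of the cell surface, 7 were tested, 1 rose and 2 fell (median log2 fold change -0.04). Over all tested genes 29.3% rose and 28.2% fell, and neither this list nor those below were tested as a set. Bst1 (CD157), an ADP-ribosyl cyclase, rose by 1.29 on the log2 scale, while Cd38, its relative, fell by 0.31 and Entpd5, an intracellular UDPase, fell by 0.21. Alpl, the tissue-nonspecific alkaline phosphatase, which can also dephosphorylate AMP, stood at 85.0 ± 2.35 CPM in TDP43-NLS cells and 85.5 ± 6.62 CPM in GFP cells (SD, n = 3 each) and was not called. It was named after its values were seen.

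Genes of adenosine handling included the largest fold change of the pathway lists. Slc28a2, a concentrative nucleoside transporter, stood at 45.4 ± 1.34 CPM in TDP43-NLS cells and 2.46 ± 0.158 CPM in GFP cells (SD, n = 3 each; log2 fold change 4.20, adjusted p = 5.58e-13 in edgeR's quasi-likelihood test). In its list 13 of 16 genes were tested, 5 rose and 2 fell (median log2 fold change 0.09), beside 29.3% and 28.2% of all tested genes. Ampd3, AMP deaminase, rose by 1.56 and Ada, adenosine deaminase, by 0.71. Slc29a3, an intracellular nucleoside transporter, fell by 0.72 and Nt5c2, a cytosolic nucleotidase, by 0.40. Adora2b, the low-affinity adenosine receptor, was the tested gene among 4 adenosine receptors and rose by 1.21 (6.88 ± 0.844 CPM in TDP43-NLS cells and 2.96 ± 0.370 CPM in GFP cells, SD, n = 3 each).

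Of 16 genes listed under ATP release, not all of them channels or carriers of ATP, 9 were tested, 4 rose and 2 fell (median log2 fold change 0.06). The shares over all tested genes were 29.3% and 28.2%. The volume-regulated anion channel subunits Lrrc8d, Lrrc8c and Lrrc8a rose by 0.61, 0.64 and 0.47 on the log2 scale, while Lrrc8b, also tested, had a log2 fold change of -0.21 and was not called (adjusted p = 0.175 in edgeR's quasi-likelihood test). Panx1, the pannexin channel that passes ATP, fell by 0.70, and Calhm2 by 0.43. Panx1 lies on chromosome 9, and its log2 fold change less that chromosome's median was -0.39.

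The signalling partners of P2Y receptors moved in both directions. Of 31 listed genes 28 were tested, 13 rose and 11 fell (median log2 fold change 0.11), beside 29.3% and 28.2% of all tested genes. The list was not tested as a set. On the calcium branch, the receptor channel Itpr2 rose to 67.3 ± 1.43 CPM in TDP43-NLS cells, against 17.4 ± 0.778 CPM in GFP cells (SD, n = 3 each; log2 fold change 1.95), Itpr3 rose by 0.73, and Plcb3, a phospholipase C, by 0.69. Gnai2, the main Gi subunit of these cells by reads, fell by 0.49. It lies on chromosome 9, and less that chromosome's median the value was -0.18. The G-protein regulator Rgs2 fell by 1.51 on the log2 scale. Rgs18, of the same family, had a log2 fold change of -3.51 and fell, with 11 reads in TDP43-NLS cells and 129 in GFP cells, and passed the filter only through the GFP libraries.

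Of 23 effectors placed downstream of P2X4 and P2X7, 21 were tested, 7 rose and 7 fell (median log2 fold change 0.06). These counts stand beside 29.3% higher and 28.2% lower over all tested genes and are not read as particular to the list. Ptgs2, the inducible cyclooxygenase, rose by 2.87 on the log2 scale, Sqstm1, an autophagy receptor, by 0.81 and the inflammasome sensor Nlrp3 by 0.71. Il1b, named after its values were seen, was another of the 7 and passed the filter only through the TDP43-NLS libraries. Casp1, the inflammasome protease, fell by 0.78, Adam10, a shedding protease, by 0.46 and Ano6, a scramblase, by 0.49. Casp1 and Adam10 lie on chromosome 9, and less that chromosome's median their values were -0.47 and -0.15.

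**Figure D4:**
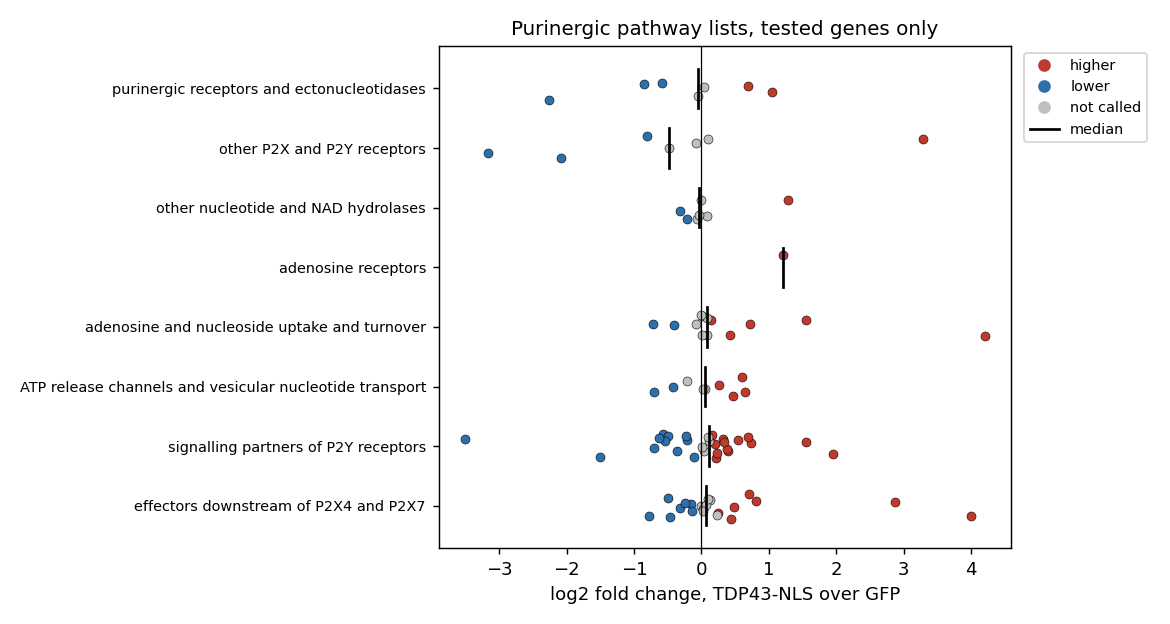
Log2 fold change (TDP43-NLS over GFP, edgeR) of each tested gene of the 9-gene set and of the 7 pathway lists, with black lines at the medians; red points rose, blue points fell and grey points were not called. Every list with more than 1 tested gene has genes on both sides of 0, and single genes such as Slc28a2 at 4.20 and Rgs18 at -3.51 stand far out.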

How the data were processed

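Poly(A) RNA of 6 BV2 libraries was sequenced, 3 per group. The authors deposited raw read counts for 55359 genes and FPKM values for the 25032 genes with a read, and the genome build GRCm39 and the tools Bowtie2 2.2.3, HTSeq 0.6.0 and HISAT2 2.1.0 are named, without roles, per the submitters' processing notes. The FPKM values are the counts divided by gene length and column total, to a relative error of 5.31e-16, so they are no second measurement. Gene positions come from the annotation that the authors deposited (GRCm39).

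The counts were tested with edgeR 4.0.16 in R 4.3.3 (filterByExpr with a minimum count of 10 and total of 15, TMM scaling, quasi-likelihood test, two-sided, group as the only term), after a check on simulated data. That simulation changed only a small share of the genes, far below the share called in these data. It cannot show how the scaling or the calls behave under so broad a change. The standard error is the log2 fold change divided by the square root of F. Alternatives used DESeq2 1.42.0, limma 3.58.1 on log2(FPKM + 1) and log2(FPKM + 0.1) for genes with a mean of at least 0.5, other scalings, and the replicate block. No replicate pair agreed within sampling noise (chi-square per degree of freedom of 1.20 to 7.35).

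The genes, lists and tests were chosen with earlier results of these data known. From each list up to 3 called genes per direction with the smallest adjusted p are named, with tested genes overlapping or nearest to a member and the 3 nearest profiles. Members were matched by symbol. Start sequences are from RefSeq (GRCm38.p6) and transcripts from GENCODE M21. One marker gene is not reported here by name.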

Additional observations from a re-analysis of the deposited data

How the results depend on the processing

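Over the other scalings, the low-count filter, DESeq2, the FPKM fits, the replicate block and leaving out each library in turn, P2ry2 (log2 fold change 0.90 to 1.11), P2ry6 (0.56 to 0.75), P2rx7 (-0.64 to -0.51), P2ry12 (-2.42 to -2.10, not in the FPKM fits, where its mean was under 0.5) and P2ry13 (-0.94 to -0.49) kept their direction and call. P2rx4 (within 0.07 of 0, and below 0 once the median of its chromosome was subtracted) and Entpd1 (-0.10 to 0.00) were called in none of them. Tested against a log2 fold change of 0.5, P2rx7 (-0.58) lost its call, 1221 genes were higher and 744 lower, and the lists kept 2 higher and 1 lower (nucleoside uptake), 0 and 1 (ATP release), 4 and 3 (P2Y partners), and 4 and 1 (P2X effectors). The 0 for ATP release in edgeR's test stands beside 2 genes at an unadjusted p under 0.05 and 4 called by DESeq2 against no change. The hydrolase list, part of it intracellular, then had 0 lower in edgeR's test, with 0 at an unadjusted p under 0.05, and 2 by DESeq2 against no change. In the limma fits of FPKM, 2 of the other P2X and P2Y receptors were left to test, with 0 higher (0 at an unadjusted p under 0.05, 1 by DESeq2) and 1 lower. Gpr17, which edgeR called higher, was under the mean FPKM of 0.5 needed there (0.237 in TDP43-NLS cells, 0.0239 in GFP cells). The 0 was therefore set by that cut and does not compare the methods. Without the low-count filter 2 adenosine receptors were higher. Without GFP replicate 2, the higher counts were 6 (nucleoside uptake), 14 (P2Y partners) and 9 (P2X effectors). The labels do not say whether the replicate numbers pair the libraries. Correlations of deviations were -0.02 to 0.00 for same-numbered libraries, which shows no pairing but, from so few libraries, cannot exclude it. With the replicate block 3848 genes were higher and 3679 lower. Genes under the filter are limited by depth.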

Other observations

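Several further genes of the pathway lists were under the filter on low counts, and their reads, picked after their values were seen, are given without a test. Adora2a, the adenosine receptor coupled to Gs, had 7, 7 and 12 reads in TDP43-NLS libraries and 2, 0 and 0 in GFP libraries. The ratio of summed reads, TDP43-NLS over GFP, had a 95% exact binomial interval of 3.25 to 113. P2rx5, another ATP-gated channel, had 7, 2 and 2 reads in TDP43-NLS libraries and 9, 18 and 9 in GFP libraries. Grk3, a kinase that desensitises G-protein-coupled receptors, had 0 reads in every TDP43-NLS library and 3, 5 and 9 in GFP libraries. Adora3, an adenosine receptor coupled to Gi, had 8, 7 and 6 reads in TDP43-NLS libraries and 1, 6 and 2 in GFP libraries. The interval covers counting error only.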
